A study of Homo sapiens with 4 samples.

Results

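CREB3, CREB3L1, CREB3L2 and CREB3L4 are genes of the CREB3 family of membrane-bound transcription factors, and their mRNAs were examined in A549 cells transduced with an FCN3 virus or with the control empty virus (EV). The genes were taken by symbol from the deposited expression tables, in which all 4 of them were found among 25192 genes. A549 is a human lung adenocarcinoma cell line. RNA was sequenced from 2 EV cultures and from 2 cultures transduced with retrovirus that expresses full-length FCN3, a secreted lectin of the complement system. Per the study's methods the FCN3 sequence carries a V5 tag at its C-terminus and is followed by an IRES and GFP, and the control virus expresses GFP alone, so both groups received the viral backbone and GFP. RNA was taken 48 h post infection, per the labels. One cell line was used and no sort for GFP is named for these samples. Nothing in the labels says whether the 2 libraries of a group came from separate transductions. The p-values therefore measure the spread between these libraries, which may be technical. Where libraries are paired by replicate number, the difference between replicate numbers that both groups share is taken out first. Those p-values rest on the spread left between 2 paired differences, which edgeR moderates with the spread of other genes.

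CREB3 family proteins are made as precursors anchored in the membrane of the endoplasmic reticulum (ER) by a single transmembrane segment, with a basic leucine zipper (bZIP) on the cytosolic side. On stress or changed secretory load they move to the Golgi, where the site-1 and site-2 proteases cut them, and the released N-terminal part enters the nucleus and activates transcription. ATF6 is activated by the same route. CREB3 (also called Luman) is widely expressed, CREB3L1 (OASIS) is known from bone and other matrix-secreting cells, CREB3L2 (BBF2H7) drives genes of the ER-to-Golgi coat in cartilage, and CREB3L4 (AIbZIP) is known from prostate and testis. Because activity depends on cleavage, an mRNA level does not measure how much active factor a cell holds.

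Expected counts per library summed to between 16353554 and 35733735, with the deeper library of each group being its replicate 1. FCN3 had an expected count of 1 and 0 in EV replicates 1 and 2, and 722388 and 448352 in FCN3 replicates 1 and 2. The epithelial keratin gene KRT8 was at 1761 and 2223 CPM (expected counts scaled to the TMM-adjusted library size) with EV and at 2112 and 2651 CPM with the FCN3 virus. Of 7 epithelial and A549 marker genes, edgeR with the replicate block called 4 up-regulated (KRT8, KRT18, KRT19 and AKR1B10) and 2 down-regulated (CDH1 and ALDH1A1) at an FDR of 0.01. In the same fit 19.1% of all tested genes were called up-regulated and 17.1% down-regulated. Without the block the adjusted p of the 7 ran from 0.040 to 0.78 in edgeR, and DESeq2 called KRT19 and ALDH1A1. CDH1, the gene of E-cadherin, was at 15.4 and 24.4 CPM with EV and at 9.23 and 18.4 CPM with the FCN3 virus, and the groups overlapped. CDH1 fell by 0.57 on the log2 scale (adjusted p = 3.2e-06 in edgeR with the block). ALDH1A1, an aldehyde dehydrogenase abundant in A549, was at 6988 and 7768 CPM with EV and at 4454 and 5039 CPM with the FCN3 virus. ALDH1A1 fell by 0.64 on the log2 scale (adjusted p = 1.8e-15 in edgeR with the block). The part of these marker shifts in the results on the family was not tested. CDKN2A, which is deleted in A549, had at most 4 counts in any library. PTPRC, PECAM1, VWF, DCN and SFTPC, which mark leukocytes, endothelium, fibroblasts and alveolar type II cells, also had at most 4 counts.

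In all 4 genes the lower of the FCN3 libraries exceeded the higher of the EV libraries. Such separation upward was seen in 28.0% of the 14099 genes tested. With libraries paired by replicate number, edgeR's quasi-likelihood test called 3 of the 4 members up-regulated at an FDR of 0.01, where 19.1% of all tested genes were called up-regulated. The called members were CREB3L2, CREB3L4 and CREB3, and CREB3L1 did not pass. With no pairing, edgeR called 0 of the 4 (3 had an unadjusted p under 0.05), where 0.738% of all tested genes were called up-regulated. DESeq2 without the block, the tool of the study's methods, called CREB3L2 alone, where 4.35% of all genes were called up-regulated. DESeq2 with the block also called CREB3L2 alone. The median log2 fold change of the members was 0.56, beside 0.01 over all tested genes. Bulk RNA cannot tell a change in every cell from a change in a part of the cells.

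**Figure D1:**
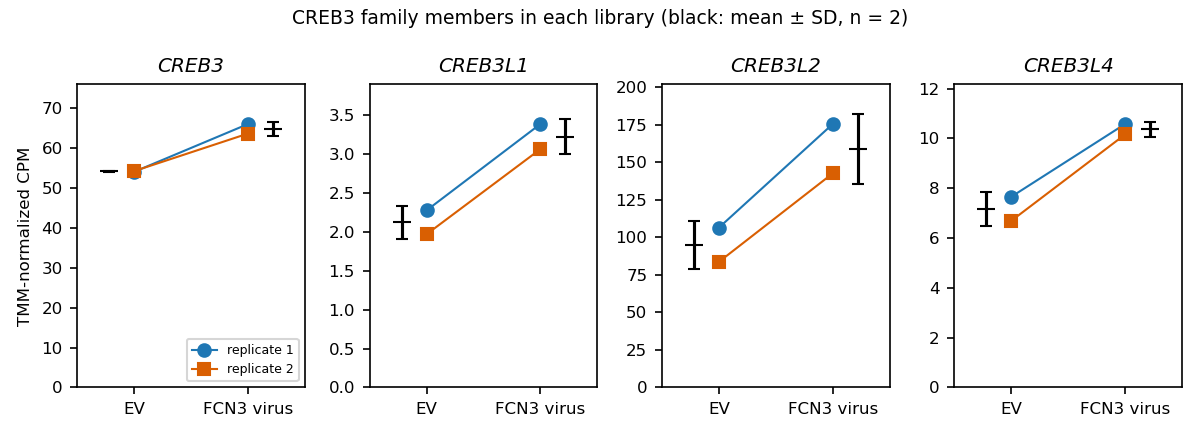
TMM-normalized CPM of each member in the 4 libraries, with lines joining EV and FCN3 libraries of the same replicate number and black marks for the mean ± SD (n = 2). In all 4 panels the FCN3 libraries sit above the EV libraries. Replicate 1 lies above replicate 2 in both groups for CREB3L1, CREB3L2 and CREB3L4, and the CREB3 lines cross.

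CREB3L2 had the largest fitted fold change of the family. Its levels were 106.5 and 83.7 CPM in EV replicates 1 and 2 and 175.6 and 142.7 CPM in FCN3 replicates 1 and 2, from expected counts of 3882, 1401, 5955 and 2839. Both FCN3 libraries were higher, and replicate 1 was higher than replicate 2 within each group. Means were 95.1 ± 16.2 and 159.1 ± 23.2 CPM (SD, n = 2 in each group). CREB3L2 rose by 0.74 on the log2 scale (standard error, SE, 0.055), or 1.68-fold, with an adjusted p of 7.7e-17 in edgeR with the replicate block. Taken pair by pair, the increase was 0.72 in replicate 1 and 0.77 in replicate 2. Without the block the log2 fold change was again 0.74, but its SE was 0.16 and the adjusted p was 0.056. DESeq2 gave an adjusted p of 6.6e-04 without the block, and limma on log2(TPM + 0.1) did not call CREB3L2. Each fit that left out 1 library had to do without the block, and the adjusted p from edgeR then lay between 0.019 and 0.16.

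The replicate numbers themselves were compared with the group in the model. CREB3L2 was higher in replicate 1 by 0.35 on the log2 scale in EV cells and by 0.30 with the FCN3 virus. The fitted difference was 0.32 (SE 0.055, adjusted p = 5.7e-06 in edgeR), and 10.5% of all tested genes were called higher in replicate 1. The other 3 members did not pass this test. Their fitted differences between replicates 1 and 2 were 0.02 for CREB3 (SE 0.063), 0.17 for CREB3L1 (SE 0.21) and 0.12 for CREB3L4 (SE 0.13). Of the 4 members, CREB3L2 had the largest proportional drop in SE when the block was added.

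The CREB3L2 gene is protein-coding and occupies bases 137559725 to 137686832 of chromosome 7 on GRCh37 (minus strand), where the antisense gene CREB3L2-AS1 shares no exonic bases with it. The 250 bases before its annotated start are shown because they hold the palindromic cAMP response element (CRE), the site that gave the CREB proteins their name. CREB3 is shown beside it as the member with the smallest fold change, and HERPUD1 as an ER stress gene that rose in the same libraries. The sequences are those of RefSeq on GRCh38.p14, chr7:138002087-138002336 on the minus strand, chr9:35732416-35732665 on the plus strand and chr16:56931892-56932141 on the plus strand. They are written 5′ to 3′ on the strand of the gene, and capitals mark matches to the motifs named below.
CREB3L2: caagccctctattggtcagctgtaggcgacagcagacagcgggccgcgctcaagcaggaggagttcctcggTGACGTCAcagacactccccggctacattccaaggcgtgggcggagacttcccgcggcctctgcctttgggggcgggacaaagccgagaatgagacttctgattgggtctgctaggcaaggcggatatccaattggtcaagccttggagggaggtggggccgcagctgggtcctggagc
CREB3: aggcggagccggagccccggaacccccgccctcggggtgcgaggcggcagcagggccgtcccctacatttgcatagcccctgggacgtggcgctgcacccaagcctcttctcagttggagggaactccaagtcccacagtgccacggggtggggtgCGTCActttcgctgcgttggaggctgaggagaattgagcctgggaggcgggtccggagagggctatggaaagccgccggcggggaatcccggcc
HERPUD1: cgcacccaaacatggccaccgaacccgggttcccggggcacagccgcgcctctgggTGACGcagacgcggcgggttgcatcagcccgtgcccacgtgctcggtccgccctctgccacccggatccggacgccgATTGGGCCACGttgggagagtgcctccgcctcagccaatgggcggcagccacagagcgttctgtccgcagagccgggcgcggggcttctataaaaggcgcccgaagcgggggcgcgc

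Exact matches were sought on both strands to the CRE (TGACGTCA), its 5-base core (TGACG, which the CRE contains on either strand), the unfolded protein response element UPRE (TGACGTGG, which contains the core too), and the ER stress response elements ERSE (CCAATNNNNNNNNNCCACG) and ERSE-II (ATTGGNCCACG). The CREB3L2 promoter held the full CRE from 179 to 172 bases before the start, a match found in 1.77% of 27305 promoters of the same length. CREB3 held the core on the opposite strand from 94 to 90 bases before its start, and the core is found in 21.7% of promoters. None of these 5 motifs was matched in the 250 bases before CREB3L1 or CREB3L4. ERSE and ERSE-II, found in 0.0806% and 0.0513% of promoters, had no match in any member, nor had UPRE, found in 0.667%. HERPUD1 held ERSE-II from 117 to 107 bases before its start, and HSPA5, the gene of the ER chaperone BiP, held ERSE from 66 to 48 bases before its start. Both also held the core, HERPUD1 from 194 to 190 and HSPA5 from 158 to 154 bases before the start. A further RefSeq start of CREB3L2, at chr7:137932989-137933238 of GRCh38.p14, had no match to any of the 5. These matches describe the letters of the windows only.

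CREB3L4 was a low-level member that passed the paired test. It was at 7.66 and 6.69 CPM in EV replicates 1 and 2 and at 10.6 and 10.2 CPM in FCN3 replicates 1 and 2. The FCN3 libraries differed less from each other than the EV libraries did. Means were 7.17 ± 0.683 and 10.4 ± 0.303 CPM (SD, n = 2 in each group). The log2 fold change was 0.52 (SE 0.12, 1.43-fold, adjusted p = 4.8e-04 from edgeR with the block, and 0.12 without it). Pair by pair it was 0.47 and 0.60 for replicates 1 and 2. DESeq2 did not call CREB3L4, with an adjusted p of 0.11 with the block and 0.25 without, nor did limma on log2 TPM. On GRCh37 the CREB3L4 gene spans bases 153940010 to 153946837 of chromosome 1, and its exons share 280 bases with SLC39A1 and 93 with JTB, both on the opposite strand. The libraries were stranded, but the strand setting of the counting is not given in the sources used here. SLC39A1 fell by 0.22 on the log2 scale (adjusted p = 8.4e-04 in edgeR with the block), and JTB had a log2 fold change of 0.10 that did not pass (adjusted p = 0.126). The part of these neighbours in the CREB3L4 value was not tested.

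CREB3 was the member with the smallest change and the closest replicates. It was at 54.1 and 54.2 CPM in EV replicates 1 and 2 and at 66.0 and 63.7 CPM in FCN3 replicates 1 and 2. The gap between the groups exceeded the spread within each. Means were 54.2 ± 0.129 and 64.8 ± 1.69 CPM (SD, n = 2 in each group). The log2 fold change was 0.26 (SE 0.063, 1.20-fold, adjusted p = 5.1e-04 from edgeR with the block, and 0.14 without it). Pair by pair it was 0.29 and 0.23 for replicates 1 and 2. In DESeq2 the adjusted p was 0.068 with the block and 0.28 without. On the log2(TPM + 1) scale limma gave a smaller change of 0.15, which was not called. On GRCh37 the CREB3 gene spans bases 35732595 to 35736996 of chromosome 9, where its exons share 134 bases with GBA2 on the opposite strand. GBA2 had a log2 fold change of -0.14, which did not pass (adjusted p = 0.11 in edgeR with the block). The expected counts of CREB3 were 1969.82 and 907.79 with EV and 2239.91 and 1265.94 with the FCN3 virus. They were not whole numbers, unlike those of the other members. The part of GBA2, or of reads that RSEM divides between genes, in the CREB3 value was not tested.

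CREB3L1 was the least abundant member and its change did not pass the threshold. It was at 2.28 and 1.97 CPM in EV replicates 1 and 2 and at 3.39 and 3.07 CPM in FCN3 replicates 1 and 2, from 83, 33, 115 and 61 expected counts. The groups did not overlap, but the counts were few. The log2 fold change was 0.59 (SE 0.21, 1.51-fold, adjusted p = 0.015 from edgeR with the block, and 0.20 without it), with 95% bounds of 0.19 and 1.00 before any adjustment for multiple tests. These bounds hold the fitted change of CREB3L2, so CREB3L1 was not shown to change less than CREB3L2. When genes with under 10 counts in any library were left out, fewer genes were tested and the adjusted p of CREB3L1 was 0.0091. On the log2(TPM + 1) scale, where the pseudocount lowers the fold of low genes, limma gave a change of 0.32 for CREB3L1, not called. On GRCh37 the CREB3L1 gene spans bases 46299213 to 46342959 of chromosome 11, where no other annotated gene overlaps it.

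CREB3L3, a further, liver-enriched gene of the family, had 1 expected count in each of the 4 libraries, under the floor of 3 counts used here for detection. That floor corresponds to between 0.084 and 0.183 CPM, depending on the library. A difference in CREB3L3 was not detectable at this depth.

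**Figure D2:**
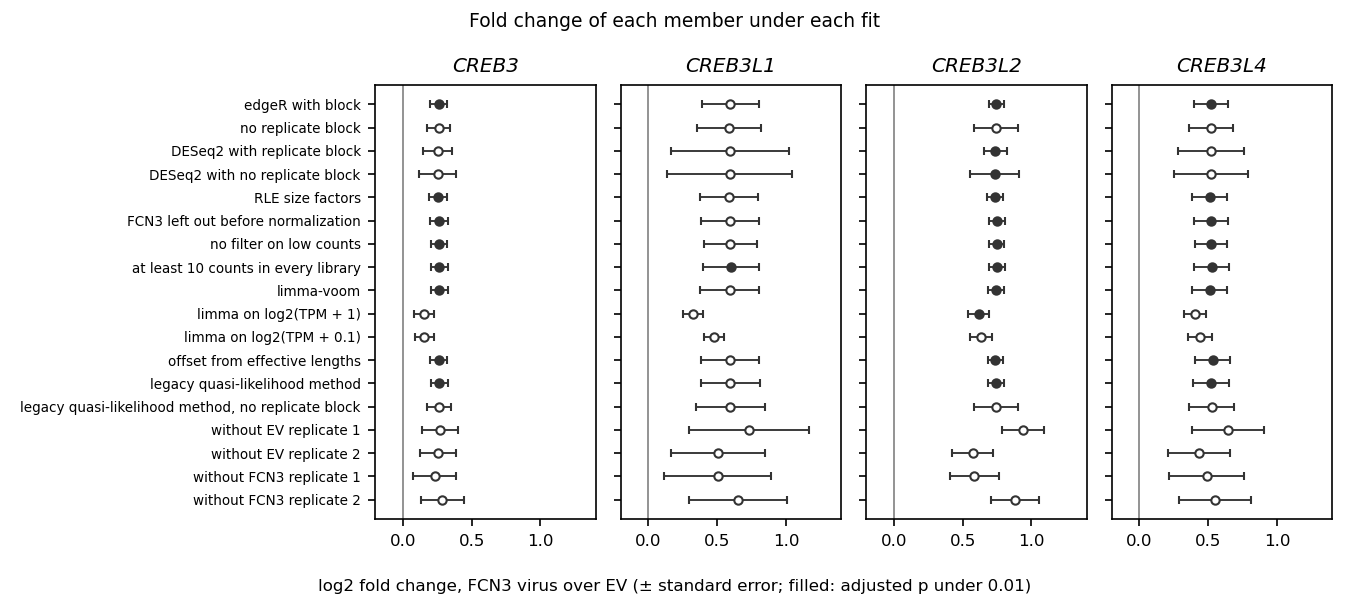
Fitted log2 fold change of each member (horizontal axis, with standard error) under each fit, named at the left, where filled points have an adjusted p under 0.01. All values lie above 0, and CREB3L2 is filled in more of the fits than the other members.

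Levels of the members were compared in TPM, which corrects for transcript length. In both groups the order was CREB3, CREB3L2, CREB3L4 and CREB3L1, and no library of a member overlapped any library of its neighbour in that order. CREB3 was at 58.9 and 58.6 TPM in EV replicates 1 and 2 and at 66.2 and 64.8 TPM in FCN3 replicates 1 and 2. CREB3L2 was at 27.9 and 20.9 TPM with EV and at 41.3 and 34.1 TPM with the FCN3 virus. CREB3L2, with its long transcripts, had more counts than CREB3 but a lower TPM. CREB3L4 stood at 8.96 and 7.76 TPM with EV and at 11.5 and 11.3 TPM with the FCN3 virus. CREB3L1 stood at 1.67 and 1.43 TPM with EV and at 2.28 and 2.10 TPM with the FCN3 virus.

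**Figure D3:**
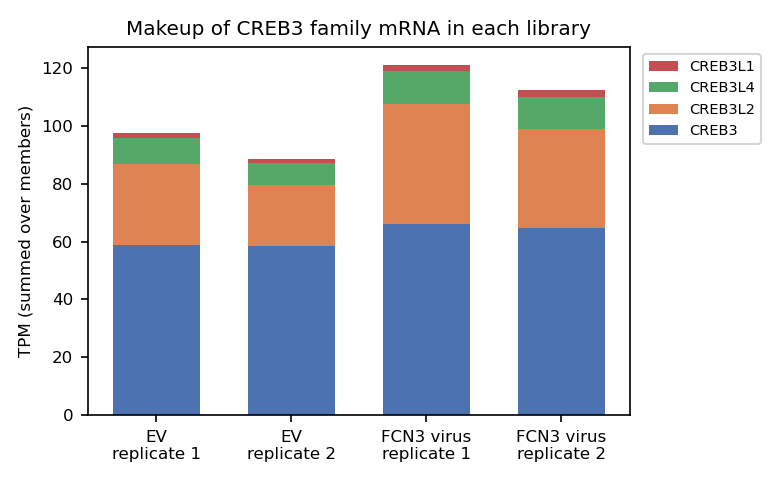
Stacked TPM of the 4 members in each library (vertical axis, TPM from 0). The EV bars reach 97.4 and 88.6 TPM and the FCN3 bars 121.2 and 112.3 TPM, with CREB3 the largest part of each bar and CREB3L2 the part that grows most.

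Summed over the family, TPM was 93.0 ± 6.22 with EV and 116.8 ± 6.34 with the FCN3 virus (SD, n = 2 in each group). Of the difference of 23.7 TPM between these means, CREB3L2 contributed 13.3, CREB3 6.75, CREB3L4 3.0 and CREB3L1 0.64. CREB3L2 made up 28.6% and 23.5% of family TPM in EV replicates 1 and 2 and 34.1% and 30.4% in FCN3 replicates 1 and 2, so the groups did not overlap. The share of CREB3 was 60.5% and 66.1% with EV and 54.6% and 57.7% with the FCN3 virus. CREB3 was 2.11-fold and 2.81-fold above CREB3L2 in EV replicates 1 and 2, and 1.60-fold and 1.90-fold above it in FCN3 replicates 1 and 2. With 2 libraries against 2, the smallest two-sided p that an exact permutation test of such a share allows is 0.333, and the shift in makeup was not tested. The FCN3 transcript itself takes part of the TPM total in the transduced libraries. With TPM rescaled without it, the mean of CREB3 with the FCN3 virus was 68.5 TPM in place of 65.5. That of the family total was 122 TPM in place of 116.8, and the EV means did not change. The difference between the groups was thus larger on that scale for the total and for each member.

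The tables list 2 RefSeq transcripts for CREB3L2, 6 for CREB3L4 and 1 each for CREB3 and CREB3L1. RSEM reports for each gene a length averaged over its transcripts by their estimated abundance, so a shift in this length reflects a shift in the estimated transcript mix. For CREB3L2 it was 7167 and 7456 bases in EV replicates 1 and 2 and 7331 and 7340 bases in FCN3 replicates 1 and 2. Both FCN3 values lay between the EV values. For CREB3L4 it was 1734 and 1736 bases with EV and 1725 and 1716 bases with the FCN3 virus. Both FCN3 values lay below both EV values, a difference that was not tested.

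The factors cleaved by the same proteases did not move as one. Of 4 tested genes, edgeR with the block called ATF6 and SREBF2 up-regulated and did not call ATF6B or SREBF1. The share of all tested genes called up-regulated in this fit was 19.1%. ATF6, the ER stress sensor closest to the CREB3 family in its activation, had a log2 fold change of 0.42 (SE 0.065, adjusted p = 2.8e-07, and 0.12 without the block). SREBF2, the sterol-regulated factor of cholesterol synthesis, had a log2 fold change of 0.47 (SE 0.060, adjusted p = 3.8e-09, and 0.050 without the block). The median of these 4 genes was 0.21. Without the block edgeR called 0 of them (2 had an unadjusted p under 0.05), and DESeq2 without the block called SREBF2.

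Of the 6 soluble relatives that lack a membrane anchor, edgeR with the block called 2 up-regulated, ATF2 and CREB5, where 19.1% of all tested genes were called up-regulated. The log2 fold change of ATF2 was 0.59 (SE 0.070, adjusted p = 4.7e-10, and 0.038 without the block). That of CREB5 was 1.21 (SE 0.22, adjusted p = 9.9e-06, and 0.36 without the block). The counts of CREB5 were 82 and 9 for EV and 165 and 35 for the FCN3 virus, and in CPM its groups overlapped. CREB1, the founding member of the CREB proteins, had a log2 fold change of -0.09 that did not pass (SE 0.069, adjusted p = 0.30 in edgeR with the block). The median of the 6 was 0.14. Without the block edgeR called 0 of them (1 had an unadjusted p under 0.05).

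Genes whose products cut, bind or degrade the family moved in both directions. Of 8 tested genes, edgeR with the block called 3 up-regulated and 2 down-regulated. Of all tested genes, 19.1% were called up-regulated and 17.1% down-regulated. SYVN1, the ubiquitin ligase HRD1 of ER-associated degradation, was at 29.4 and 40.8 CPM with EV and at 110.7 and 120.3 CPM with the FCN3 virus. Its log2 fold change was 1.74 (SE 0.067, adjusted p = 2.1e-28 with the block and 0.0099 without it), the only call in this list without the block. CREBRF, whose product binds CREB3 and limits its activity, rose by 0.93 (SE 0.17, adjusted p = 1.3e-05 in edgeR with the block, and 0.056 without it). FBXW7, a ubiquitin ligase subunit, rose by 0.54 (SE 0.11, adjusted p = 7.5e-05 with the block, and 0.12 without it). HCFC1, a nuclear cofactor that binds CREB3, fell by 0.21 (SE 0.053, adjusted p = 7.2e-04 with the block, and 0.23 without it). TM4SF20, a membrane protein reported to regulate the cleavage of CREB3L1, fell by 1.13 (SE 0.20, adjusted p = 4.2e-06 with the block, and 0.58 without it). It was at 1.59 and 9.5 CPM in EV replicates 1 and 2 and at 0.737 and 4.32 CPM in FCN3 replicates 1 and 2. TM4SF20 differed more between replicate numbers than between groups. The proteases themselves were not called, with log2 fold changes of 0.03 for MBTPS1 (SE 0.054) and 0.08 for MBTPS2 (SE 0.060).

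**Figure D4:**
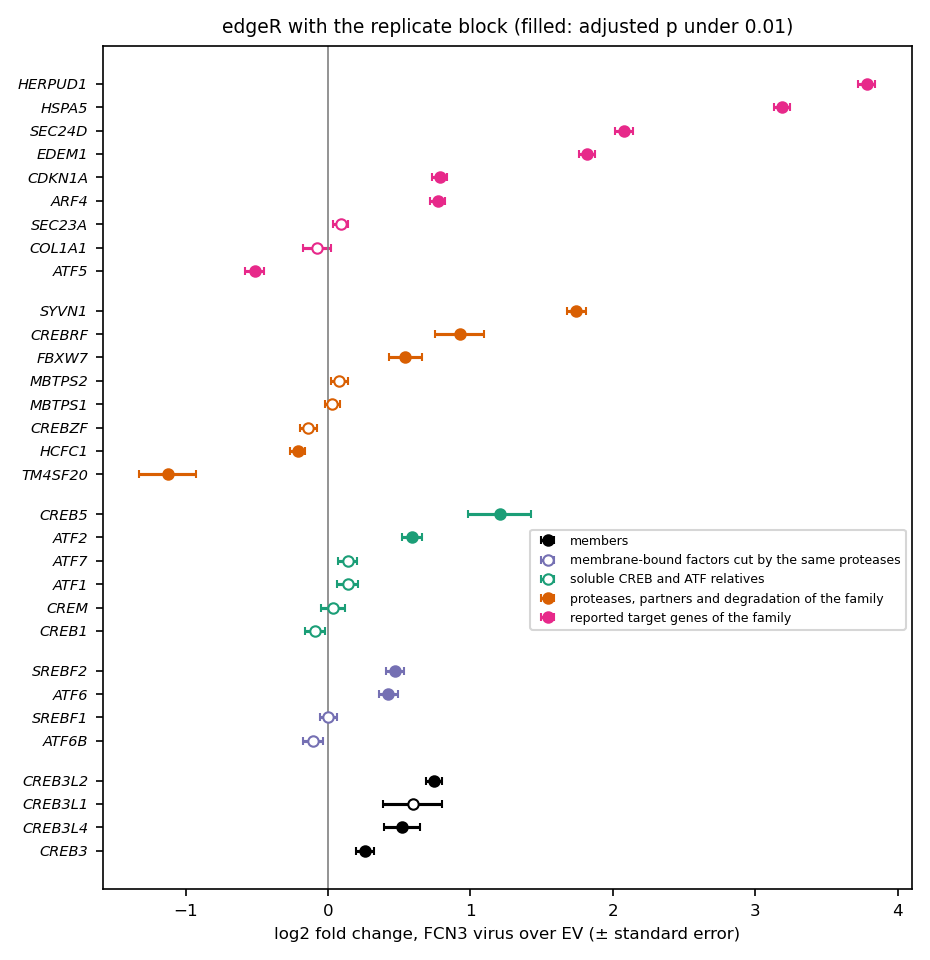
Log2 fold change of every tested gene of the family and its 4 related lists (horizontal axis, with standard error) from edgeR with the replicate block, where filled points have an adjusted p under 0.01. The members lie between 0.26 and 0.74, and the target genes spread from -0.52 to 3.78.

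Of 10 genes reported elsewhere as targets of CREB3 family factors, 9 were tested, and edgeR with the block called 6 up-regulated and 1 down-regulated. The shares of all tested genes were 19.1% and 17.1%. The list was chosen with earlier results of these data known, and the study had already reported HSPA5 as up-regulated in this RNA-seq. These counts are therefore not independent of the data. The median log2 fold change of the 9 target genes was 0.79. HERPUD1, an ER-associated degradation gene reported as a CREB3 target, had the largest increase, from 44.7 and 50.5 CPM in EV replicates 1 and 2 to 670.2 and 634.9 CPM in FCN3 replicates 1 and 2 (an increase of 3.78 on the log2 scale, SE 0.059, adjusted p = 7.2e-46). HSPA5 had a log2 fold change of 3.19 (SE 0.056, adjusted p = 9.6e-44), SEC24D, a COPII coat gene, 2.08 (SE 0.063, adjusted p = 6.1e-33), and EDEM1, which sends glycoproteins to degradation, 1.82 (SE 0.057, adjusted p = 2.3e-32). The remaining increases were those of ARF4 and CDKN1A, whose adjusted p without the block was 0.010 and 0.012. HERPUD1, HSPA5 and EDEM1 are also targets of ATF6 or XBP1, so the list is not particular to the CREB3 family. By immunoblot, at a later time than these libraries, the study reported p53 and p21, the CDKN1A product, as up-regulated proteins in A549 cells with FCN3. Whether factors outside the family moved SEC24D, ARF4 or CDKN1A was not tested.

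The targets reported for CREB3L2 itself did not move together. SEC24D rose, SEC23A had a log2 fold change of 0.09 that did not pass (SE 0.052, adjusted p = 0.16 in edgeR with the block), and ATF5 fell by 0.52 (SE 0.067, adjusted p = 5.7e-09 with the block, and 0.15 without it). SEC23A was at 193.3 and 172.3 CPM with EV and at 197.0 and 191.8 CPM with the FCN3 virus, and the groups overlapped. COL1A1, a collagen gene reported as a CREB3L1 target, did not pass either, with a log2 fold change of -0.08 (SE 0.096, adjusted p = 0.54). COL1A2 was not tested, with 2 counts in EV replicate 1 and 0 elsewhere. Without the block edgeR called 4 of the 9 target genes, all up-regulated, and DESeq2 without the block called 6, all up-regulated. Of all tested genes these fits called 0.738% and 4.35% up-regulated.

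The genes with the most similar pattern to each member were found among tested genes that averaged 1 or more in log2 CPM, by the Euclidean distance between log2 CPM values centred over the 4 libraries. For CREB3L2 the nearest were SERINC5, SNHG5 and C6orf170, at distances of 0.042, 0.044 and 0.071. For CREB3 they were EAF1, AIFM2 and PXK, at distances from 0.011 to 0.020. For CREB3L1 they were FDXR, PPM1D and COBLL1, at distances from 0.027 to 0.035, and for CREB3L4 ASTN2, SVIL and RDH10, at distances from 0.018 to 0.029. Each distance rests on 4 libraries and 11968 candidate genes.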

How the data were processed

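RNA-seq libraries of 2 EV and 2 FCN3-virus-transduced A549 cultures were analysed, grouped by their labels. Per the study's methods, trimmed reads were mapped by STAR 2.6.1d against hg19 and quantified by RSEM. The files deposited by the authors hold expected counts (estimated, not normalized) and TPM, normalized by RSEM for effective length and depth. The deposited FPKM values were not used.

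Expected counts were rounded and fitted in R 4.3.3 with edgeR 4.0.16 (TMM, filterByExpr, quasi-likelihood test with the replicate number as a block, Benjamini-Hochberg adjustment over 14099 genes, threshold 0.01). Standard errors (SE) were derived from the fold change and the F statistic. Libraries were paired by replicate number because the definition of the comparison asked for it, and the labels number them alike in both groups. Differences between replicates 1 and 2 correlated between groups (Pearson's r = 0.801 across 8262 genes). Replicate 1 was also the deeper library of each group, and the part of depth in this correlation was not tested. DESeq2 1.42.0 and limma 3.58.1 served as alternatives. Named in each list were up to 4 called increases and 4 called decreases with the largest changes, untested genes, and the 3 nearest genes by pattern for each member; other genes of the lists were named after their values were seen. The members and lists were chosen with earlier results of these data known. Locations come from GENCODE on GRCh37 and promoters from RefSeq on GRCh38.p14, with 1 entry for each of 27305 symbols. The interval of CREB3L1 rests on the edgeR SE, which includes the spread between libraries left after the replicate block. The detection floors cover counting error only.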

Additional observations from a re-analysis of the deposited data

How the results depend on the processing

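The direction of the 4 members was positive under all 13 alternative fits and in the 4 fits that left out 1 library. As the groups did not overlap in any member, refits of the same libraries could hardly reverse that direction. Their calls depended on the fit. With no replicate block the log2 fold changes were 0.26 for CREB3, 0.74 for CREB3L2 and 0.52 for CREB3L4, none called. The legacy quasi-likelihood method with no replicate block, added after seeing the data, gave 0.26, 0.74 and 0.53, none called. DESeq2 gave 0.25 for CREB3 and 0.52 for CREB3L4 both with and without the block, not called. limma on log2(TPM + 1) gave 0.15 for CREB3, 0.32 for CREB3L1 and 0.40 for CREB3L4, none called, and limma on log2(TPM + 0.1) gave 0.16, 0.64 for CREB3L2 and 0.44, none called. CREB3L1 was called with at least 10 counts in every library (0.60) and at an FDR of 0.05 (0.59). RLE factors, FCN3 left out, no filter, limma-voom, effective-length offsets and the legacy method with the block changed no call of a member. In limma on TPM the median log2 fold change of all tested genes was -0.072 with a pseudocount of 1 and -0.087 with 0.1. It was 0.015 in edgeR with the block. The cause of the lost calls was not tested. In the fits that left out 1 library, made without the block and on the assumption that the lone library varied like the others, the log2 fold changes ran from 0.23 to 0.29 for CREB3, 0.51 to 0.73 for CREB3L1, 0.57 (without EV replicate 2) to 0.94 (without EV replicate 1) for CREB3L2 and 0.43 to 0.64 for CREB3L4, and called 0 of the 4 (1 or 2 at an unadjusted p under 0.05).

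Among all tested genes edgeR called 5103 with the replicate block and 136 without it, and the legacy method without it 147. DESeq2 called 2257 with and 1077 without the block, limma with a pseudocount of 1 on TPM 2440 and with 0.1 on TPM 0 (6227 at an unadjusted p under 0.05), and the fits that left out 1 library 92 to 267. The members called were 0 without the block under either edgeR method, 1 in DESeq2 with or without it, and 1 and 0 in limma on TPM with a pseudocount of 1 and 0.1. In the same order of fits, the factors cut by the same proteases went from 2 to 0 without the block, 1 in DESeq2 without it, and 0 and 0 on TPM. The soluble relatives went from 2 to 0, then 1 in DESeq2 either way, and 1 and 0 on TPM, and to 1 with at least 10 counts in every library. The partners went from 5 to 1 without the block, 1 in DESeq2 either way, and 3 and 0 on TPM, and the target genes from 7 to 4 without the block and 0 on log2(TPM + 0.1). At an unadjusted p under 0.05 these counts of 0 were 3, 2 and 1 for the members, the factors and the soluble relatives without the block, 3 for the factors with a pseudocount of 1, and 3, 2, 2, 6 and 7 for the 5 groups with a pseudocount of 0.1. Leaving out 1 library gave 0 to 0, 0 to 0, 0 to 0, 1 to 1 and 4 to 5 calls in these 5 groups. With TPM rescaled without FCN3, the means with the FCN3 virus were 68.5 for CREB3 and 11.9 for CREB3L4. CREB3L1 had 33 to 115 counts per library and CREB3L3 1.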
